A study of Mus musculus with 12 samples.

Results

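The cadherin, protocadherin, contactin, Cntnap (contactin-associated protein), neurexin, neuroligin, Lrrtm, Ncam, Dscam, Slit, Robo and Unc5 genes of mouse cortical cultures are described here across miR-29 virus and oxygen-glucose deprivation (OGD). They were chosen by gene symbol alone, as every row of the count table that began with Cdh or Robo or Slit plus a digit, or with Pcdh, Cntn, Nrxn, Nlgn, Lrrtm, Unc5, Dscam or Ncam. The pattern itself uses no measured value. The pattern found 76 of the 12145 rows, and all 76 had enough counts to be among the 12119 genes tested. They were 13 cadherins, 16 clustered and 11 non-clustered protocadherins, 6 contactins, 7 Cntnap genes, 3 neurexins, 3 neuroligins, 4 Lrrtm genes, 2 Ncam genes, 2 Dscam genes, 3 Slit ligands, 2 Robo receptors and 3 Unc5 receptors. The last row, Unc50, matched by its letters and is not a netrin receptor.

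All cultures came from the cortex of C57BL6 mouse embryos at E16.5 to E17.5, and all carried a lentivirus from day 6 in vitro at a total multiplicity of infection of 2. The 4 groups were OGD-miR-29 (virus labelled miR-29c, then OGD on day 14 in vitro for 3 h with 4 h of recovery), OGD-empty (empty virus, same OGD), sham-miR-29 (miR-29c virus, sham) and sham-empty (empty virus, sham). OGD withholds oxygen and glucose and is used as a culture model of ischemia. RNA-seq libraries were made from ribosome-depleted total RNA of 3 cultures a group, each set dissected on its own day, so replicates are separate cultures. Sham-empty had 2 usable libraries: the deposited column of its replicate 3 summed to 22859, ranked genes unlike every other library (Spearman correlations of 0.0438 to 0.0978), and was left out after its values were seen. Mature miR-29 was not analysed here.

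Neurexins sit on the axon terminal and bind neuroligins and Lrrtm proteins on the dendrite across the synaptic cleft, a contact that organises both sides of the synapse. Cadherins and clustered protocadherins bind like with like between neighbouring membranes, and the clustered protocadherins give single neurons a surface identity. Slit ligands repel growing axons through Robo receptors, Unc5 receptors turn the netrin signal into repulsion, and contactins, Cntnap, Ncam and Dscam proteins are immunoglobulin or laminin-type adhesion molecules of axons and synapses. Many of these genes are expressed mainly in neurons and are among the longest of the mammalian genome. MicroRNAs of the miR-29 family are abundant in mature neurons and lower messenger RNAs that pair with their seed.

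The virus carried miR-29c, so its mature sequence is given first, from RefSeq on GRCm38.p6 (chr1:195037600-195037621, plus strand), with the seed (bases 2 to 8) in capitals. The mature miR-29a-3p and miR-29b-3p have the same seed. A 3′ untranslated region pairs with this seed where it holds TGGTGCT, which was searched on the transcript strand of GENCODE M21 (GRCm38) transcripts. These letters stood in 16.8% of the 10083 genes with a 3′ untranslated region, and in 10 of the 76 adhesion and guidance genes. The sites listed here belong to Nlgn1, which had 3 of them and was the second largest fall, to Pcdh17, to Robo1, and to Cntn2, which did not pass the test. The match is in capitals in each.
mmu-miR-29c-3p: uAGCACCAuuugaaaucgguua
Nlgn1 (chr3:25429921-25429943, minus strand): agagagttgggcagaTGGTGCTg
Nlgn1 (chr3:25429299-25429321, minus strand): tggaaaatccacctgTGGTGCTt
Nlgn1 (chr3:25429026-25429048, minus strand): ggcatctgattttaaTGGTGCTa
Pcdh17 (chr14:84535494-84535516, plus strand): ataccttggaaaatgTGGTGCTg
Pcdh17 (chr14:84536437-84536459, plus strand): tttaacacagaactcTGGTGCTt
Robo1 (chr16:73045709-73045731, plus strand): cattgactttataatTGGTGCTa
Cntn2 (chr1:132514073-132514095, minus strand): tggaggagagaggtgTGGTGCTg

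Depth was low and 1 library stood apart. Summed counts per library were 1337564 to 6616920, and the 11 libraries held 231500 to 1362484 counts outside the rows of the mitochondrial genome. Those rows took 82.3%, 78.5% and 74.1% of the counts in OGD-miR-29, 76.4%, 57.6% and 73.1% in OGD-empty, 80.7%, 78.3% and 78.6% in sham-miR-29 and 82.7% and 84.1% in sham-empty, so OGD-empty replicate 2 had the lowest share. Of the other counts, the 76 genes took 0.601% to 0.696% in OGD-miR-29, 1.32% to 3.24% in OGD-empty, 0.782% to 1.26% in sham-miR-29 and 0.884% to 1.00% in sham-empty. The highest of these shares was that of OGD-empty replicate 2, where the 76 genes had a median of 1.27 on the log2 scale above their own means, against 0.36 and 0.42 in the other OGD-empty libraries. That library also had the highest correlation of expression deviation with log10 gene span (0.52, against 0.35 in both other OGD-empty libraries), and the main counts, and the called genes it moved by more than 1.5 times, are given without it too. Summed neuronal markers (13 genes) were 652.6 to 796.9 CPM (counts scaled to the size of the library) in OGD-miR-29, 1068 to 1348 in OGD-empty, 773.7 to 1002 in sham-miR-29 and 810.3 to 903.1 in sham-empty. Summed astrocyte markers (5 of 7 listed) were 44.2 to 45.4 CPM in OGD-miR-29, 37.9 to 52.7 in OGD-empty, 41.9 to 51.6 in sham-miR-29 and 38.8 to 40.5 in sham-empty. Of these neuronal and astrocyte markers 0 were at 0 in every library. Summed microglial markers (3 of 8 listed) were 32.2 to 36.1 CPM in OGD-miR-29, 18.8 to 27.9 in OGD-empty, 28.1 to 39.8 in sham-miR-29 and 30.7 to 40.8 in sham-empty, so the OGD groups did not overlap. Between these 2 groups only Aif1 of the 3 was called, higher with miR-29 (1.54 ± 0.38). The median log2 fold change of the 3 was 0.11. Summed oligodendrocyte-lineage markers (3 of 7) were 9.62 to 14.2 CPM in OGD-miR-29, 8.58 to 9.73 in OGD-empty, 12.51 to 14.6 in sham-miR-29 and 11.9 to 12.2 in sham-empty, so the OGD groups overlapped. Between them only Sox10 of the 3 was called, higher with miR-29 (1.14 ± 0.38). The median of the 3 was 0.15, and 1 lay below 0. Summed neuronal markers were highest in OGD-empty, as the 76 genes were, and their OGD-miR-29 and sham-miR-29 ranges overlapped. The part of these markers in the results was not tested, and in bulk RNA fewer neurons and less of this RNA per neuron cannot be told apart.

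After OGD, cultures with miR-29 virus had less RNA of most of these adhesion and guidance genes than cultures with empty virus, before the trend on gene span was removed. Of the 76 genes, 52 fell and 2 rose in OGD-miR-29 against OGD-empty (edgeR's quasi-likelihood test, adjusted p under 0.05), where 37.1% of all tested genes were called, 19.9% lower and 17.2% higher. The median log2 fold change of the 76 was -1.38, against 0.02 for all genes. With the trend on gene span removed and a replicate block, 24 of the 54 calls were kept, 23 in the same direction. The median was then -0.47, as given further on, and 24.5% of all genes were called. In 60 genes every OGD-miR-29 library lay below every OGD-empty library, and in 2 every one lay above, against 25.2% and 25% of all genes. Replicate numbers were taken as dissection days throughout, which the sample labels do not state. Paired by that number, the median difference of the 76 was negative in each pair, at -0.82, -1.90 and -0.99 on the log2 scale. Without OGD-empty replicate 2, 54 fell and 1 rose, 52 of the 54 first calls remained, and the median was -1. Of the 54 calls, 27 held whichever of the 6 OGD libraries was left out. Between 31 and 55 genes were called in those fits, where 26.4% to 34.7% of all genes were called.

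**Figure D1:**
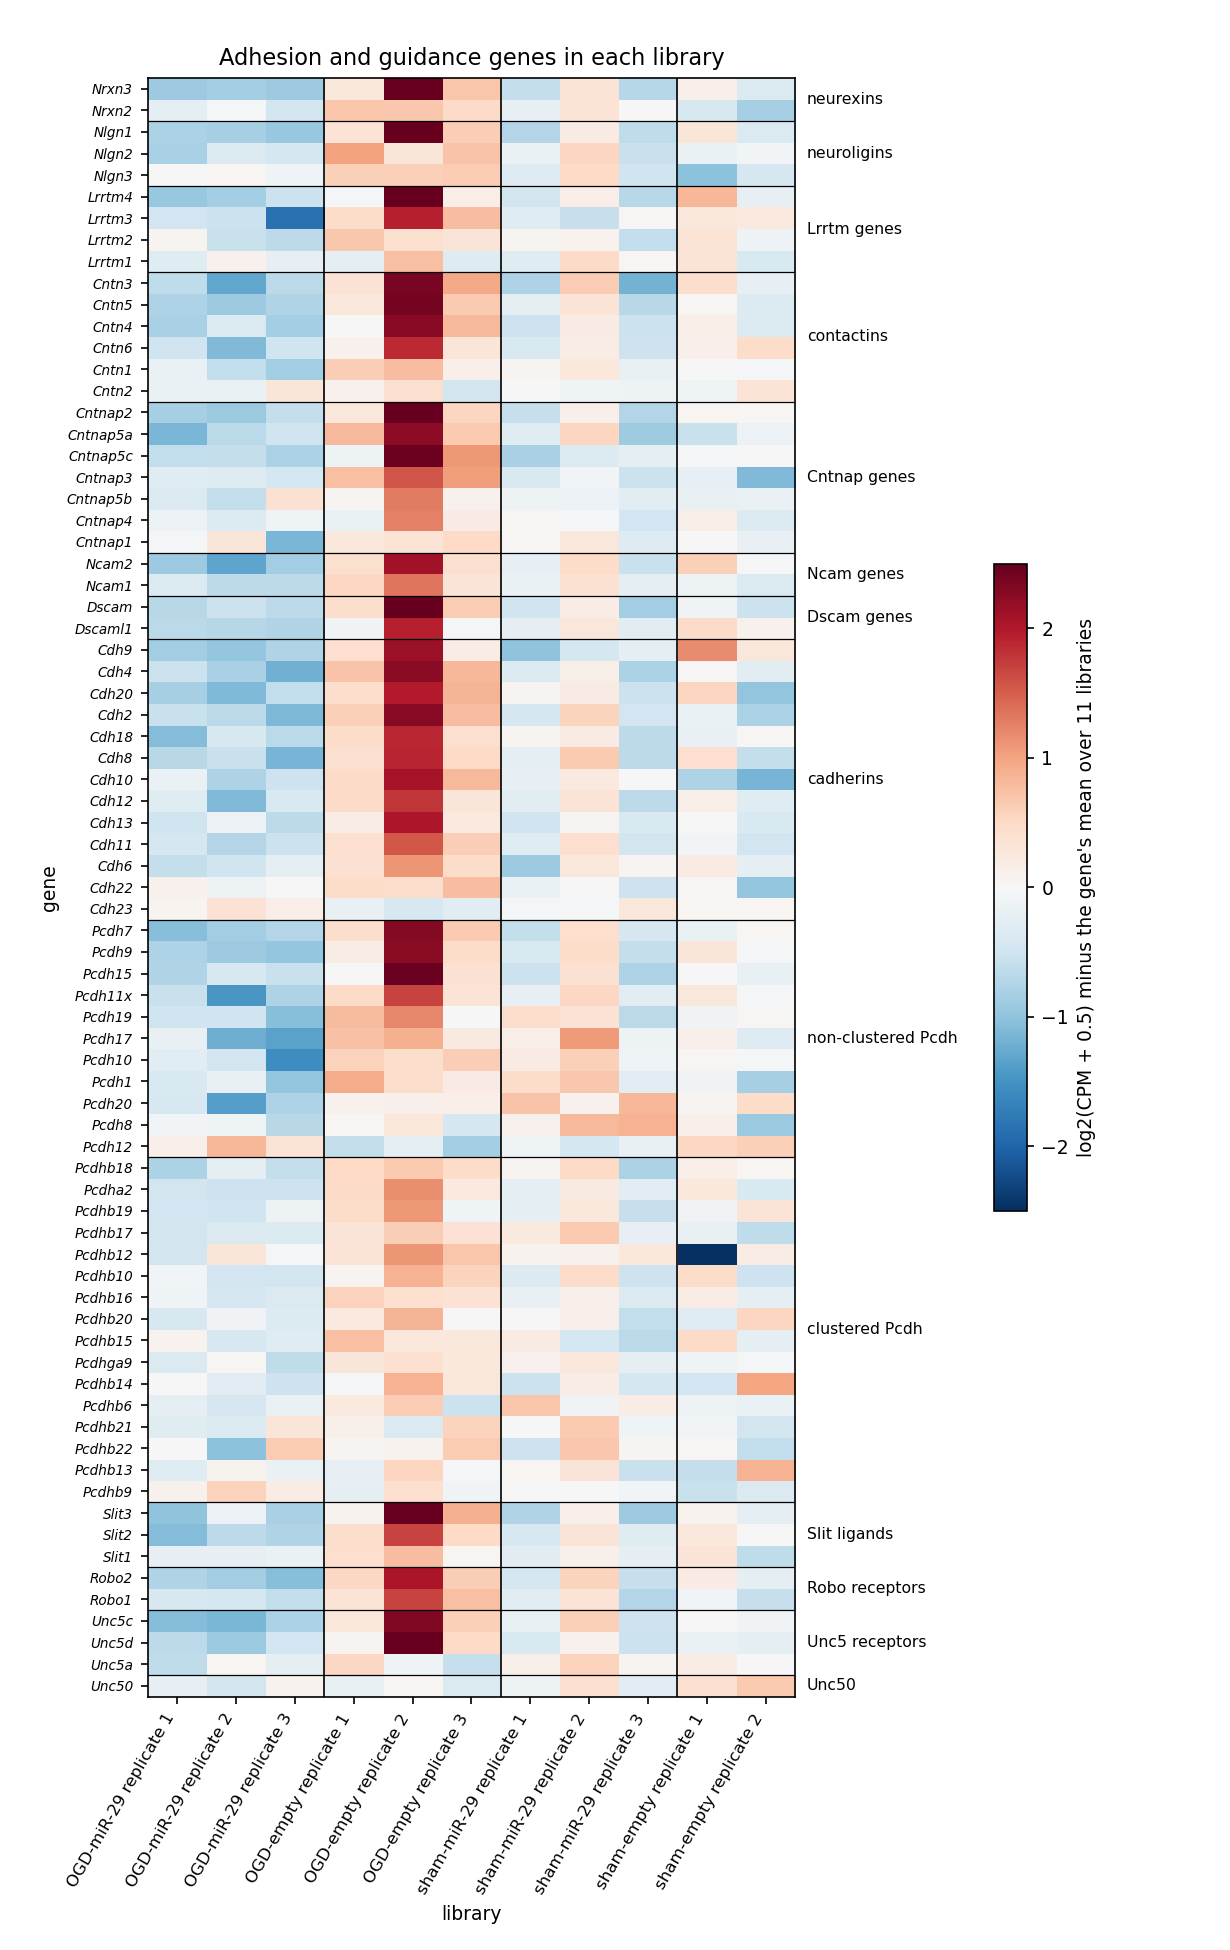
Each row is 1 of 75 of the genes, grouped by family, and each column 1 of the 11 libraries; colour is log2(CPM + 0.5) minus the gene's mean over the libraries, cut at 2.5 in both directions. The 3 OGD-miR-29 columns are mostly blue and the 3 OGD-empty columns mostly red, with OGD-empty replicate 2 the darkest.

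Among the neurexins, the presynaptic organisers, Nrxn3 and Nrxn2 fell. Nrxn3, with a span of 1612 kb, had 86.0, 89.0 and 86.1 CPM in the 3 OGD-miR-29 libraries, against 195.2, 1189 and 261.6 CPM in the OGD-empty libraries. The OGD-miR-29 values lay close together and below every OGD-empty value, while OGD-empty replicate 2 was several times its group's others. The difference was -2.65 ± 0.70 (log2 fold change ± SE, adjusted p = 0.0208), the largest fall of the 76, and -1.42 without OGD-empty replicate 2. Nrxn2, which spans 125.4 kb, had 33.1, 37.8 and 28.4 CPM in OGD-miR-29, against 63.8, 63.2 and 54.7 CPM in OGD-empty. In Nrxn2 the OGD-empty libraries lay close together, and the fall was -0.87 ± 0.20 (adjusted p = 0.00311) with all libraries and -0.88 without replicate 2. The call of Nrxn2 held in each of the 6 fits that left out 1 OGD library, and that of Nrxn3 was lost without any 1 of the OGD-miR-29 libraries. Both calls were lost when the trend on gene span was removed, as given further on.

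Of their postsynaptic partners all 3 neuroligins and 2 of the 4 Lrrtm genes fell. Nlgn1, a neuroligin of excitatory synapses, had 23.3, 22.8 and 21.2 CPM in OGD-miR-29, against 52.2, 292.6 and 62.7 CPM in OGD-empty. The groups did not overlap, and the log2 fold change was -2.58 ± 0.70 (adjusted p = 0.0225), or -1.36 without OGD-empty replicate 2, with a call that was lost without any 1 OGD-miR-29 library. Nlgn2, the neuroligin of inhibitory synapses, is a short gene of 14.7 kb and was picked for the text after its values were seen. It had 8.82, 12.2 and 11.5 CPM in OGD-miR-29 and 32.0, 19.4 and 26.3 CPM in OGD-empty, a fall of 1.31 (SE 0.28, adjusted p = 0.00167) in which replicate 2 was the lowest OGD-empty library. Nlgn3 fell by 0.64 (adjusted p = 0.0421), a call lost without any 1 OGD-miR-29 library or without OGD-empty replicate 1 or 3, with 18.6, 19.3 and 17.3 CPM in OGD-miR-29 and 28.6, 28.5 and 29.5 CPM in OGD-empty. Its row cannot be told from that of Gm21986, whose counts were 1.00 times its own and nearly equal in each library. Of the Lrrtm genes, leucine-rich postsynaptic partners of neurexins, Lrrtm3 (-2.01 ± 0.43) and Lrrtm2 (-0.81 ± 0.27) fell. The Lrrtm2 call was lost without OGD-miR-29 replicate 2 or 3 and without OGD-empty replicate 1. Lrrtm4, the most abundant, was at 14.7, 15.8 and 19.7 CPM in OGD-miR-29 and 27.8, 174.3 and 32.2 CPM in OGD-empty. These Lrrtm4 groups did not overlap, yet at -2.22 ± 0.75 it missed the threshold (adjusted p = 0.0503), and was called without OGD-empty replicate 2 (-0.88, adjusted p = 0.00853). Lrrtm1 had 4.96, 6.70 and 5.29 CPM in OGD-miR-29 and 5.25, 10.8 and 4.82 CPM in OGD-empty, groups that overlap, and was not called (-0.27 ± 0.34, adjusted p = 0.567). Lrrtm1, Lrrtm2 and Lrrtm3 lie inside alpha-catenin genes, and Ctnna2, Ctnna1 and Ctnna3 held 18.3, 1.71 and 1.69 times their counts, so their values can hold reads of these neighbours.

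**Figure D2:**
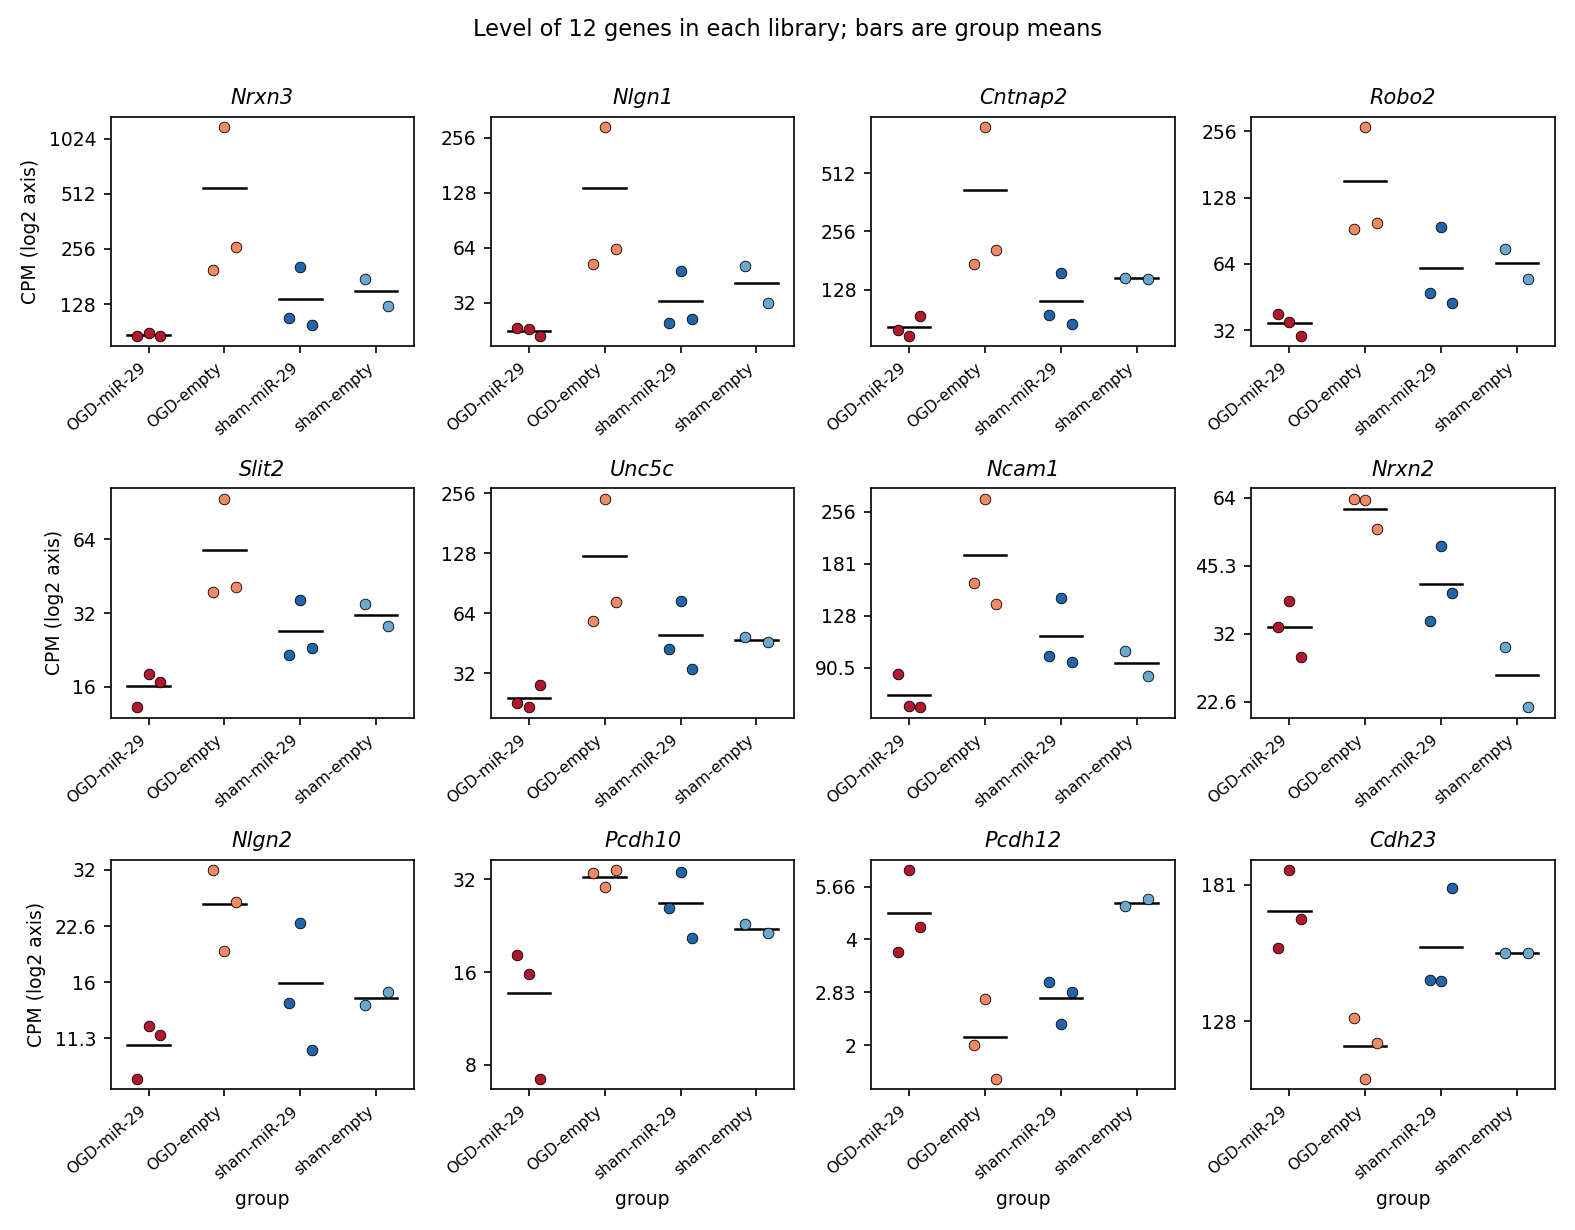
CPM (log2 axis) of 12 genes in each library by group, with bars at the group means. In the OGD-miR-29 group 10 of the genes sit below every OGD-empty library, Pcdh12 and Cdh23 above every one.

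Contactins and Cntnap proteins, which pair on axons, were mostly lower as well. Cntnap2, the partner of Cntn2 beside the nodes of myelinated axons and at 2245 kb the longest gene here, had 79.6, 74.1 and 93.8 CPM in OGD-miR-29 against 172.5, 884.7 and 205.3 CPM in OGD-empty. It fell by 2.35 (SE 0.63, adjusted p = 0.0210), with no overlap, and by 1.23 without OGD-empty replicate 2, and the call was lost without any 1 OGD-miR-29 library. Cntnap5a (-2.29 ± 0.50), Cntnap5c (-2.17 ± 0.63) and Cntnap3 (-1.54 ± 0.28) fell as well, while Cntnap4 (-0.75 ± 0.30, adjusted p = 0.0586), Cntnap5b (-0.77 ± 0.32, adjusted p = 0.0650) and Cntnap1 (-0.51 ± 0.32) were not called. Without OGD-empty replicate 2 Cntnap5c was at -1.14. Of the 6 contactins 5 fell. Cntn1, the most abundant, had 78.1, 57.5 and 48.1 CPM in OGD-miR-29 and 135.6, 151.7 and 96.5 CPM in OGD-empty (-1.06 ± 0.22, adjusted p = 0.00144). Cntn3 (-2.34 ± 0.69), Cntn5 (-2.24 ± 0.56), Cntn4 (-2.01 ± 0.58) and Cntn6 (-1.66 ± 0.45) fell further, with the first 3 of these losing their calls without any 1 OGD-miR-29 library. Without OGD-empty replicate 2 these 4 were at -1.51, -1.32, -1.09 and -0.91, in the same order. Cntn2, whose neighbour Rbbp5 held more than its count, had 4.78, 4.73 and 6.73 CPM in OGD-miR-29 against 5.87, 7.23 and 3.75 CPM in OGD-empty, and these groups overlap.

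Ncam1, the neural cell adhesion molecule, had 86.7, 70.1 and 69.7 CPM in OGD-miR-29, against 158.9, 279.6 and 138.8 CPM in OGD-empty. Every OGD-miR-29 library was lower, and the fall of 1.34 (SE 0.25, adjusted p = 0.000781) held without any 1 OGD library. The call was lost when the trend on gene span was removed, as given further on. Ncam2 fell by 2.25 (SE 0.53, adjusted p = 0.0115), and its OGD-miR-29 libraries had 16.4, 12.2 and 16.8 CPM against 41.5, 135.9 and 41.3 CPM in OGD-empty, or by 1.47 without OGD-empty replicate 2. Dscam, a homophilic receptor for neurite self-avoidance, had 15.4, 17.3 and 15.9 CPM in OGD-miR-29 and 34.4, 153.1 and 39.7 CPM in OGD-empty. Dscam (-2.21 ± 0.61) and its paralog Dscaml1 (-1.64 ± 0.55) both fell, and both calls were lost without any 1 OGD-miR-29 library. Without OGD-empty replicate 2 they were at -1.21 and -0.68.

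Of the 13 cadherins 11 fell and 1 rose. Cdh2, N-cadherin of the synaptic junction, had 15.8, 14.6 and 10.6 CPM in OGD-miR-29, against 35.8, 115.6 and 40.7 CPM in OGD-empty. The groups stood apart, and Cdh2 fell by 2.18 (SE 0.51, adjusted p = 0.0107). The type II cadherins Cdh9 (-2.30 ± 0.56), Cdh20 (-2.22 ± 0.47), Cdh18 (-1.90 ± 0.41), Cdh8 (-1.89 ± 0.50), Cdh10 (-1.72 ± 0.38) and Cdh12 (-1.56 ± 0.40) fell, as did Cdh4, R-cadherin (-2.26 ± 0.43). Without OGD-empty replicate 2 Cdh9 was at -1.51, Cdh10 at -1.08 and Cdh12 at -1. Cdh13, T-cadherin, had 33.99, 43.3 and 30.3 CPM in OGD-miR-29 and 54.5, 198.3 and 57.4 CPM in OGD-empty (-1.52 ± 0.49, adjusted p = 0.0382). The Cdh13 groups did not overlap, yet it was at -0.67 without OGD-empty replicate 2, and its call turned with gene span, as given further on. Cdh9 was read at 1.29, 1.18 and 1.44 CPM in OGD-miR-29 and 3.86, 14 and 3.22 CPM in OGD-empty, so few counts stood behind it. Cdh23, a tip-link cadherin of hair cells, was the exception, with 154.3, 187.9 and 165.9 CPM in OGD-miR-29 and 128.9, 110.6 and 121.1 CPM in OGD-empty. It rose by 0.49 (SE 0.19, adjusted p = 0.0437), a call lost without 5 of the 6 OGD libraries taken singly. Psap, a neighbouring gene, held 1.10 times the count of Cdh23 and ran in nearly the same order (169.0, 211.5 and 176.4 CPM in OGD-miR-29, 135.3, 129.2 and 149.0 CPM in OGD-empty), so the Cdh23 row can hold its reads. Cdh22 (-0.57 ± 0.32) was not called.

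Among the 11 non-clustered protocadherins 7 fell and 1 rose. Pcdh9, the most abundant of all 76 per kilobase of exon (32.4 CPM per kb over all libraries), had 101.2, 91.8 and 88.9 CPM in OGD-miR-29 against 196.6, 829.6 and 240.2 CPM in OGD-empty. It fell by 2.16 (SE 0.56, adjusted p = 0.0173), or by 1.24 without OGD-empty replicate 2, and the call was lost without any 1 OGD-miR-29 library. Pcdh7 (-2.29 ± 0.53), Pcdh11x (-1.85 ± 0.38), Pcdh19 (-1.46 ± 0.33), Pcdh17 (-1.43 ± 0.35), Pcdh10 (-1.20 ± 0.26) and Pcdh1 (-1.09 ± 0.29) fell too, with Pcdh7 at -1.49 without OGD-empty replicate 2. Pcdh10, a delta-2 protocadherin of 57.2 kb, had 18.2, 15.8 and 7.21 CPM in OGD-miR-29 and 33.5, 30.3 and 34.3 CPM in OGD-empty, where replicate 2 was the lowest and not the highest library of its group. Pcdh15, spanning 1550 kb, was at -1.96 ± 0.67 and missed the threshold (adjusted p = 0.0522), and was called without OGD-empty replicate 2 (-0.79, adjusted p = 0.0126). Pcdh12, a protocadherin known from endothelium, rose to 3.67, 6.30 and 4.33 CPM in OGD-miR-29, against 2.01, 2.71 and 1.61 CPM in OGD-empty (1.12 ± 0.38, adjusted p = 0.0255). Its neighbour 0610009O20Rik held 1.52 times its count. The Pcdh12 call rested on 3 to 20 counts in each OGD library. It was lost without OGD-miR-29 replicate 2, without OGD-empty replicate 1 or 3, and with the trend on gene span removed.

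Of the 16 clustered protocadherin rows, all on chromosome 18, 6 fell and 0 rose, a share of 37.5% called against 37.1% of all genes. Pcdha2 fell by 1.18 (SE 0.24, adjusted p = 0.00129), with 34.7, 33.1 and 33.2 CPM in OGD-miR-29 and 66.3, 107.0 and 56.3 CPM in OGD-empty. Pcdhga9, which stands for a gamma locus of 104.9 kb with constant exons shared by many isoforms, fell by 0.63 (SE 0.20, adjusted p = 0.0202). It had 56.0, 73.7 and 46.2 CPM in OGD-miR-29 against 89.6, 96.7 and 86.3 CPM in OGD-empty. The calls of Pcdha2 and Pcdhga9 were lost when the trend on gene span was removed, as given further on. The 14 Pcdhb rows averaged only 2.90 to 7.18 CPM, and adjacent ones held up to 1.39 times each other's counts, so they are not separate measurements. Their log2 fold changes ran from -1.19 (Pcdhb18) to 0.29 (Pcdhb9), and Pcdhb18, Pcdhb19, Pcdhb17 and Pcdhb16 were called.

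Among the axon guidance genes all 3 Slit ligands, both Robo receptors and 2 of the 3 Unc5 receptors fell. Slit2, the most abundant Slit ligand, had 13.2, 18.1 and 16.8 CPM in OGD-miR-29 and 39.1, 93.9 and 40.7 CPM in OGD-empty. No library crossed, and the fall was -1.86 ± 0.33 (adjusted p = 0.00104), or -1.37 without OGD-empty replicate 2. Slit3 (-2.28 ± 0.72, adjusted p = 0.0385) and Slit1 (-0.67 ± 0.26, adjusted p = 0.0473) fell with calls that were lost without any 1 OGD-miR-29 library, and Slit3 was at -1.16 without OGD-empty replicate 2. Robo2, a Slit receptor, had 38.0, 35.1 and 30.3 CPM in OGD-miR-29, against 92.5, 267.4 and 98.6 CPM in OGD-empty (-2.14 ± 0.47, adjusted p = 0.00754), and Robo1 fell by 1.52 (SE 0.34). Both receptor calls and that of Slit2 held whichever OGD library was left out, but with the span trend removed Robo1 was no longer called and lay at 0.22 (adjusted p = 0.494), and Slit1 at 0.08. The netrin receptor Unc5c had 22.6, 21.7 and 27.9 CPM in OGD-miR-29 and 58.5, 241.2 and 72.9 CPM in OGD-empty (-2.37 ± 0.57, adjusted p = 0.0139), a fall of 1.48 without OGD-empty replicate 2 and a call lost without OGD-miR-29 replicate 1 or 2. Unc5d fell by 2.26 (SE 0.67, adjusted p = 0.0325), with 32.7, 26.8 and 37.0 CPM in OGD-miR-29 against 54.2, 337.8 and 72.4 CPM in OGD-empty. Its call was lost without any 1 OGD-miR-29 library, and it was at -0.99 without OGD-empty replicate 2. Unc5a (-0.55 ± 0.39) was not called, and Unc50 had 9.002, 7.48 and 11.1 CPM in OGD-miR-29 and 9.11, 10.8 and 8.04 CPM in OGD-empty (-0.04 ± 0.27).

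**Figure D3:**
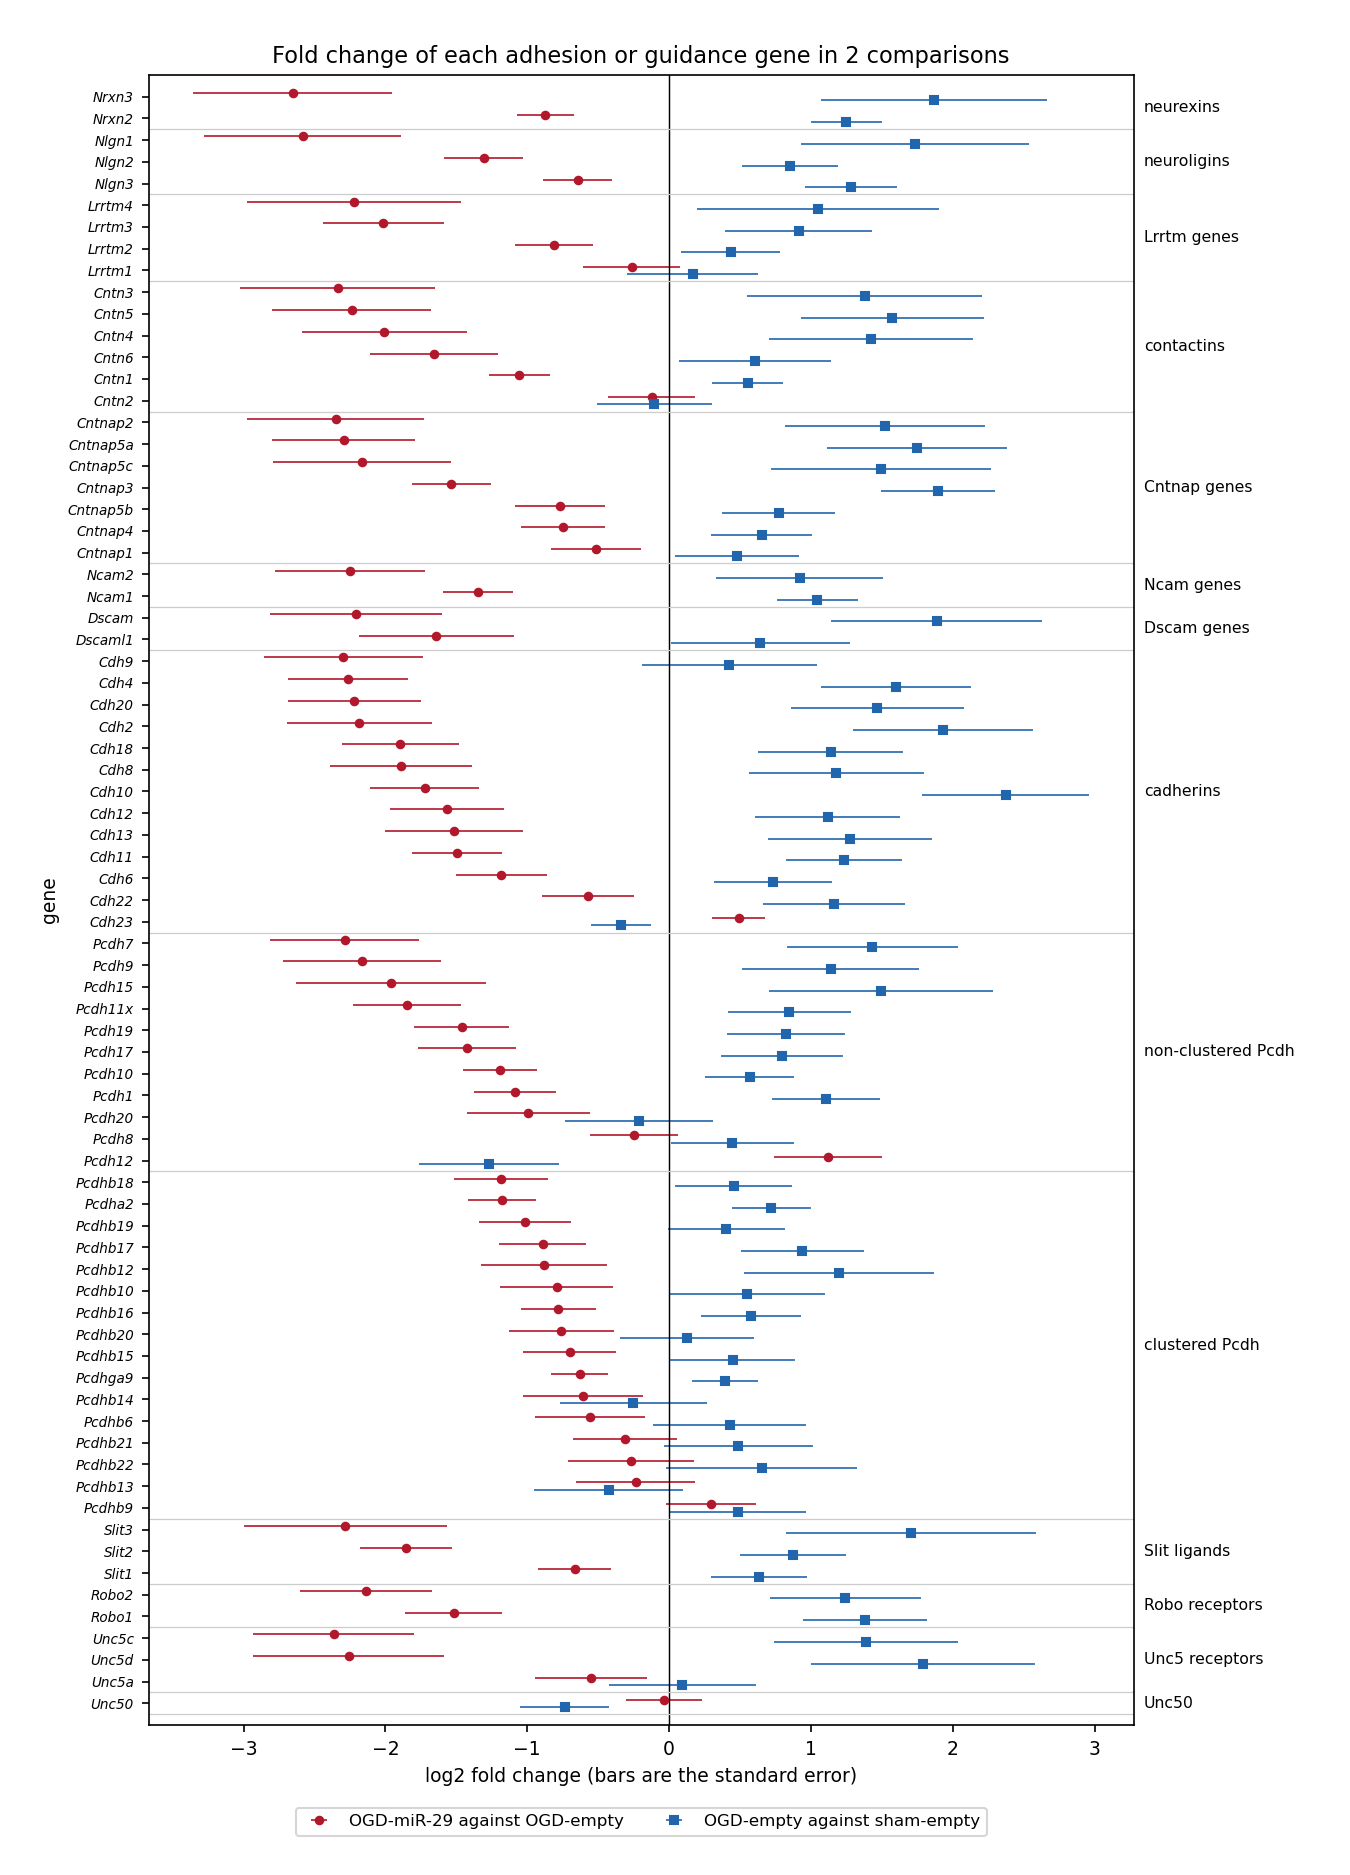
Log2 fold change of 75 of the genes, by family, with bars of 1 SE: OGD-miR-29 against OGD-empty in red circles and OGD-empty against sham-empty in blue squares. Both comparisons use the OGD-empty libraries, so the points are not independent of each other; in red all but 3 lie below 0.

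The size of the fall followed gene span, the annotated distance from start to end of a gene. Across the 76 genes the Spearman correlation of span with the log2 fold change was -0.74, and across 11924 genes -0.58; these points share libraries and are not independent. Of the 48 genes of at least 100 kb, 42 fell and 1 rose (median -1.93), where 64.7% of all 1884 genes of that span were called (median -1.07). Of the 28 shorter genes 10 fell and 1 rose (median -0.67), where 32% of all shorter genes were called and their median was 0.17. Short and long adhesion genes each had a lower median than all genes of their span class, a description without a test.

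**Figure D4:**
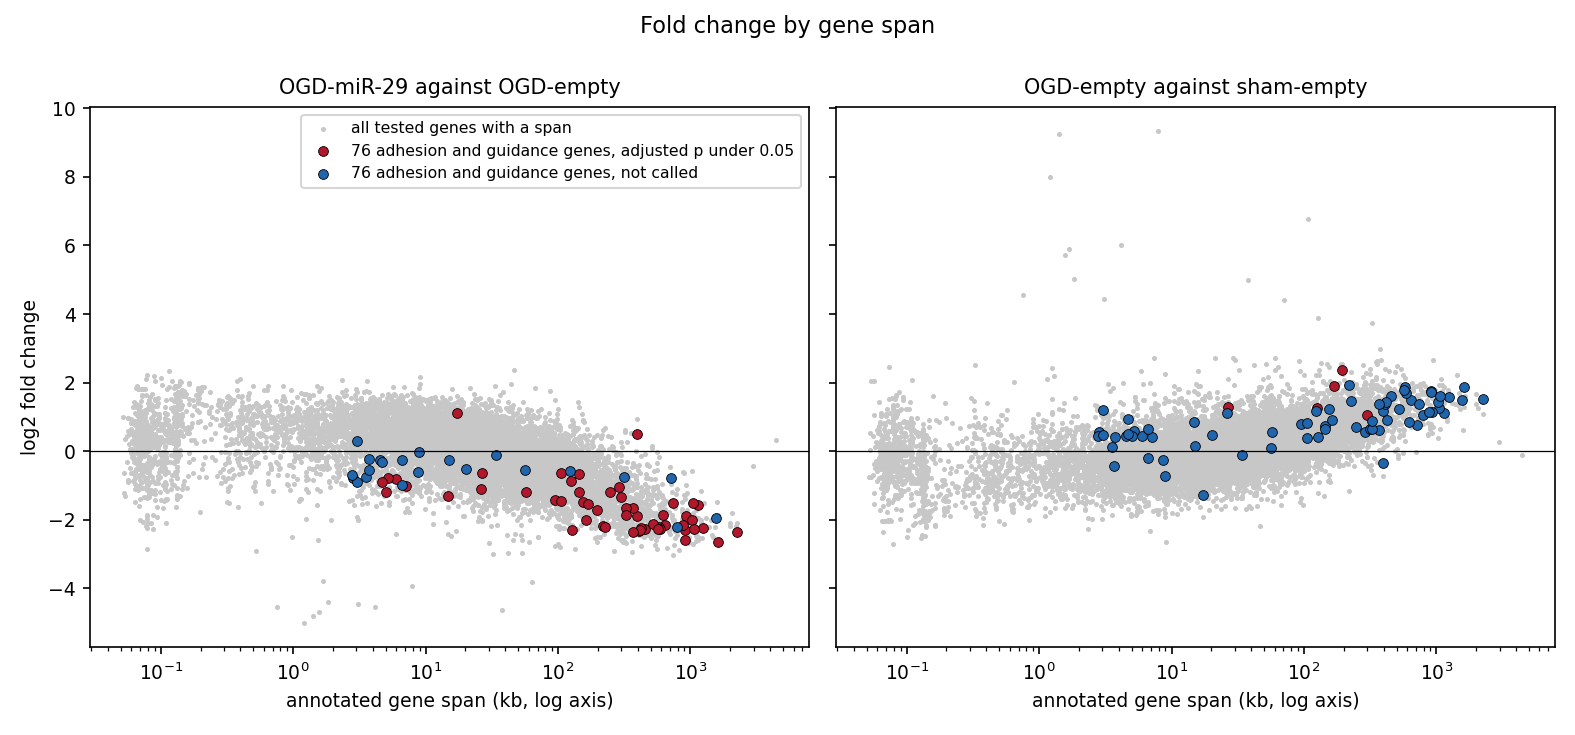
Log2 fold change against annotated gene span (kb, log axis) for OGD-miR-29 against OGD-empty on the left and OGD-empty against sham-empty on the right; grey points are all tested genes with a span, coloured points the 76 genes, red where called. Long genes lie low on the left and high on the right, and the coloured points lie mostly toward the lower edge of the grey ones on the left and the upper edge on the right.

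When the trend of each library on gene span was taken out, with the dissection day as a block, many calls among the long genes were lost. Calls became 27 lower and 5 higher (24.5% of all genes called), with a median of -0.47. Nrxn3 was then at -0.13 ± 0.20, Nlgn1 at -0.40 ± 0.19, Cntn5 at -0.02 ± 0.18, Pcdh9 at -0.12 ± 0.20 and Unc5d at -0.30 ± 0.21, all no longer called, and Cntnap2, Cntn1, Cntn4, Cdh12, Robo1 and Slit1, called lower before, were above 0 (0.27, 0.08, 0.10, 0.37, 0.22 and 0.08). Ncam1 (-0.12 ± 0.18), Nrxn2 (-0.20 ± 0.19), Pcdha2 (-0.07 ± 0.18) and Pcdhga9 (-0.05 ± 0.18) lost their calls too. Cdh13 turned from called lower to called higher (0.56 ± 0.18, adjusted p = 0.0225). The other genes called higher were Cdh23 (1.76 ± 0.27), Cntnap5b (0.87 ± 0.22), Cntnap4 (0.55 ± 0.19) and Pcdh15 (0.49 ± 0.18), of which Cdh23 alone was higher with the trend kept. The 48 long genes had a median of -0.20, with 12 lower and 5 higher, where 25.6% of all long genes were called, 256 lower and 227 higher, with a median of -0.08. The 28 short ones had a median of -0.93, with 15 lower and 0 higher. Among these 15 were Pcdhb10, Pcdhb12, Pcdhb15, Pcdhb16, Pcdhb17, Pcdhb18, Pcdhb19 and Pcdhb20, rows that are not separate measurements. The share of all shorter genes called was not taken singly in this fit. It called 2926 of all 11924 genes, 483 of them among the 1884 long ones. Lower in this fit, as in the first, were Nlgn2 (-1.61 ± 0.25), Lrrtm2 (-1.23 ± 0.25), Pcdh1 (-1.18 ± 0.23), Cdh2 (-0.98 ± 0.21), Pcdh10 (-0.91 ± 0.22), Unc5c (-0.80 ± 0.20), Slit2 (-0.55 ± 0.19) and Robo2 (-0.50 ± 0.18). Of the 27 calls that held without any 1 OGD library, 14 also held here in the same direction: Cdh2, Cdh4, Cdh9, Cdh20, Cntnap3, Lrrtm3, Ncam2, Nlgn2, Pcdh7, Pcdh10, Pcdh17, Pcdh19, Robo2 and Slit2.

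**Figure D5:**
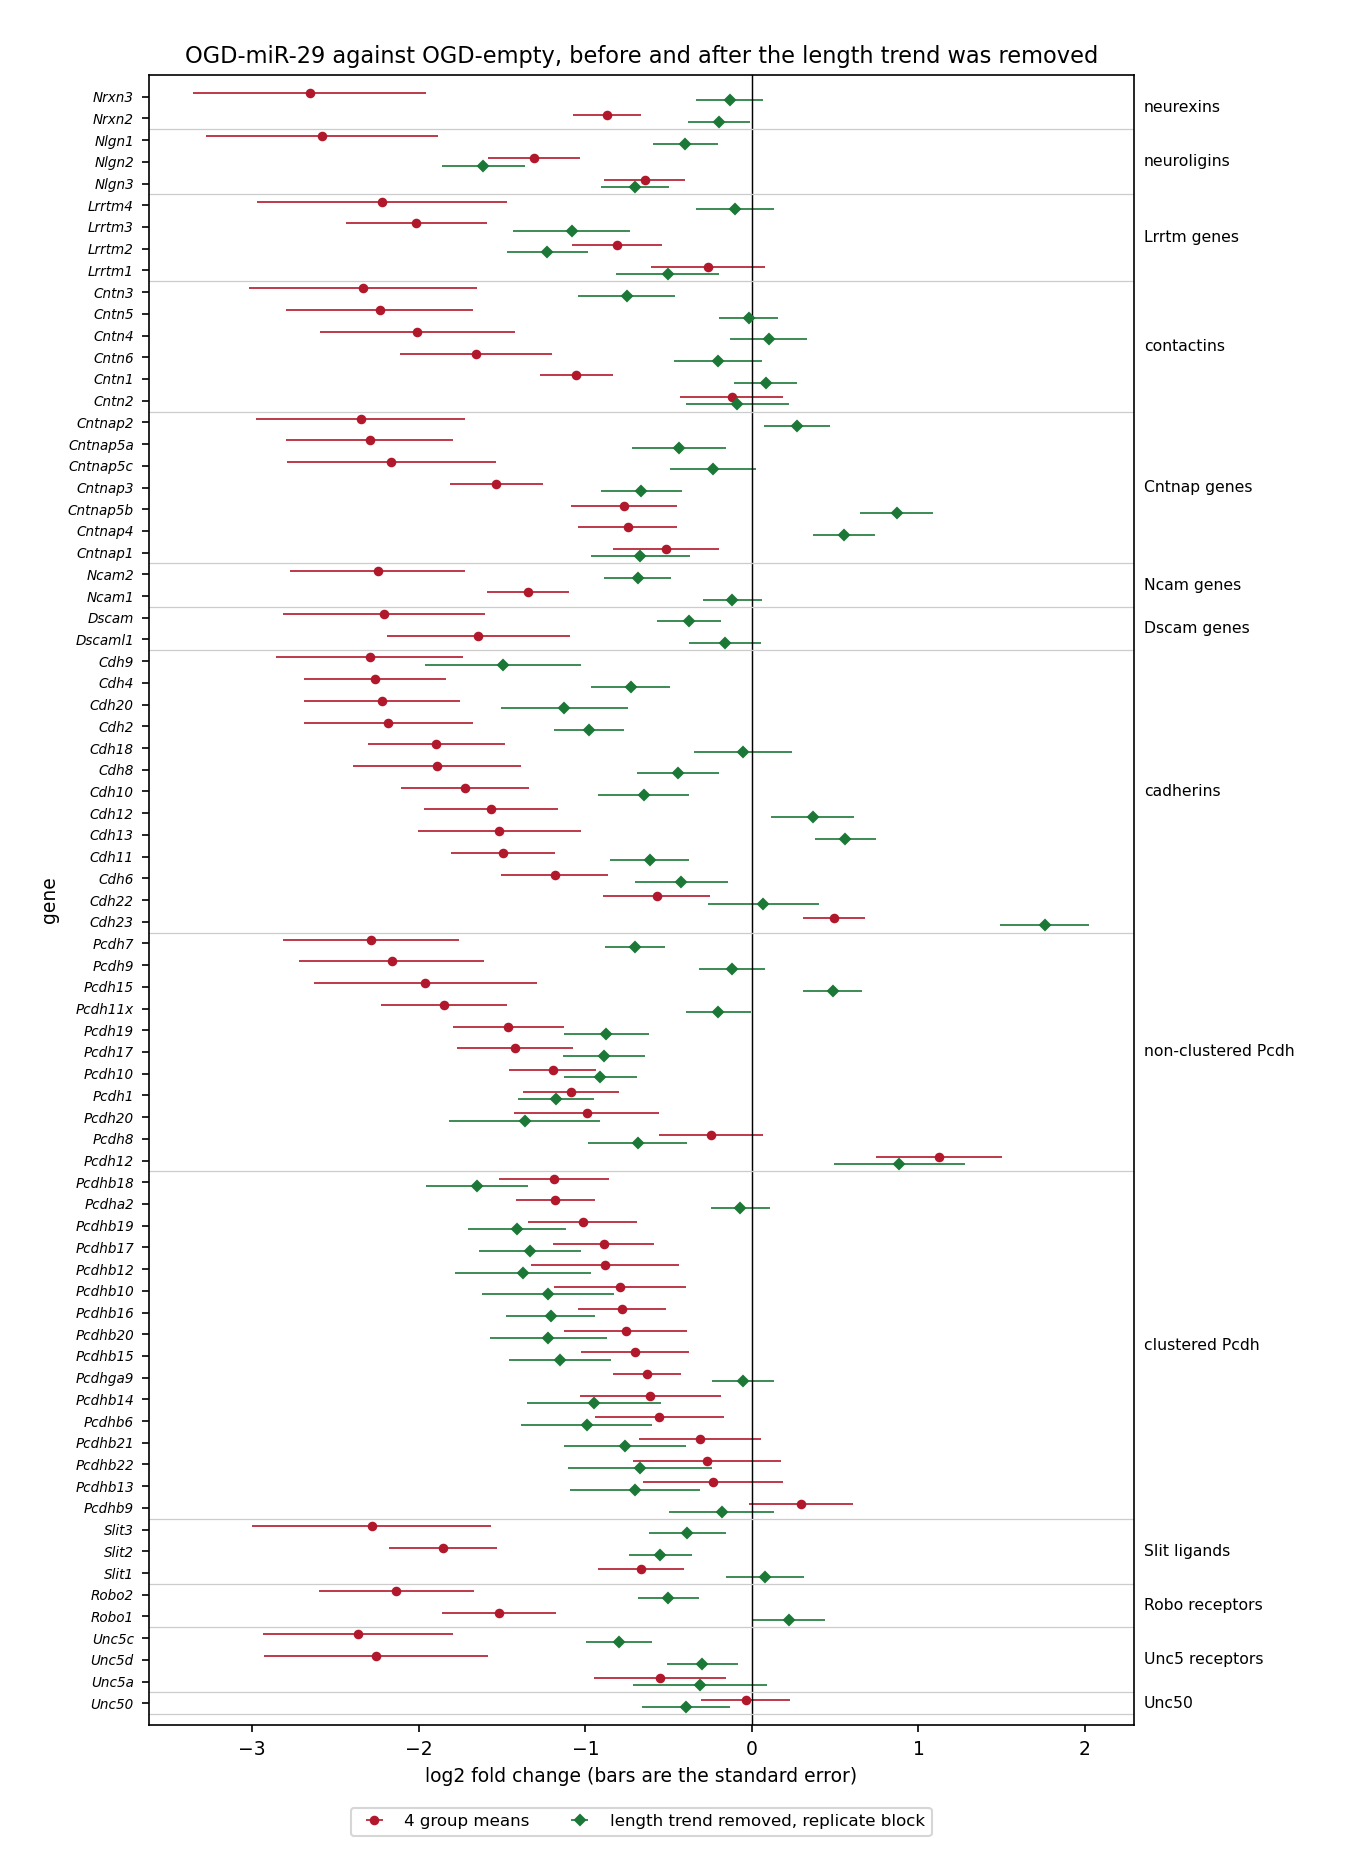
Log2 fold change with 1 SE for OGD-miR-29 against OGD-empty in 75 of the genes, by family, in the fit with 4 group means (red circles) and with the span trend removed and the dissection day as a block (green diamonds). Long genes such as Nrxn3 move close to 0, from -2.65 to -0.13, whereas Nlgn2 lies at -1.31 and -1.61.

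Genes with and without a miR-29 seed match had similar medians among the 76, a description without a test. Of the 10 with a match 7 fell (median -1.47), and of the 66 without one 45 fell and 2 rose (median -1.33). Among all tested genes, 38.8% of the 1687 with a match were called, 29.2% lower, with a median of -0.25. Of the 8381 without a match 36.6% were called, 19.5% lower, with a median of 0.04. Of the 6 long genes with a match 5 fell (median -1.89), close to the 37 of 42 without one (-1.93). Of all long genes 63.9% were called lower. With the span trend removed, 3 of the 10 were called, all lower: Pcdh17, Cdh4 and Nlgn3. That fit called 22.9% of all genes, or 24.5% with the replicate block added. The genes with printed sites ran from Nlgn1 (-2.58), Robo1 (-1.52) and Pcdh17 (-1.43) to Cntn2 (-0.12), and a match is a description of letters, not a site of action.

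In empty-virus cultures most of these genes lay higher after OGD than after sham, though few passed the test. This comparison shares the OGD-empty libraries with the one above. In OGD-empty against sham-empty 5 of the 76 rose and 0 fell, where 5.09% of all genes were called, 1.48% higher and 3.61% lower. The median was 0.89 against 0.02 for all genes, and in 43 genes every OGD-empty library lay above both sham-empty libraries, against 22% of all genes. Nrxn2 had 63.8, 63.2 and 54.7 CPM in OGD-empty against 29.8 and 21.99 CPM in sham-empty (1.25 ± 0.25, adjusted p = 0.00870). Cntnap3 had 13.9, 24.8 and 17.2 CPM in OGD-empty and 6.96 and 3.47 CPM in sham-empty (1.90 ± 0.40, adjusted p = 0.0123). Cdh10 had 10.0, 31.6 and 12.9 CPM in OGD-empty and 3.98 and 2.89 CPM in sham-empty (2.37 ± 0.59, adjusted p = 0.0323). None of these 3 genes overlapped between the groups. Nlgn3 (1.28 ± 0.33, adjusted p = 0.0309) and Ncam1 (1.04 ± 0.29, adjusted p = 0.0400) were also called, Ncam1 with 158.9, 279.6 and 138.8 CPM in OGD-empty and 101.4 and 85.7 CPM in sham-empty. With the span trend removed 3 were called (2.58% of all genes), and the median was 0.20. The calls of Cntnap3, Ncam1 and Nrxn2 were lost there. With these groups fitted alone 0 were called (2.17% of all genes), and 15 had an unadjusted p under 0.05, against 2127 of 9247 genes. With the dissection day as a block 18 rose and 0 fell, where 11.3% of all genes were called, among them Cdh2 (2.03 ± 0.43), Cntnap5a (2.01 ± 0.39), Dscam (1.91 ± 0.52), Robo1 (1.51 ± 0.38) and Pcdh1 (1.28 ± 0.33), chosen after their values were seen. Without OGD-empty replicate 2 it was 8 genes (4.85% of all genes), with Nrxn2, Cntnap3, Cdh10 and Nlgn3 still called, Ncam1 lost (0.74, adjusted p = 0.0642) and a median of 0.54. It was 17 without OGD-empty replicate 1 (8.16% of all genes). Without sham-empty replicate 1 or replicate 2 it was 0 in both, and 17 and 6 of the 76 had an unadjusted p under 0.05, against 2189 of 12143 and 1487 of 12144 of all genes. In the authors' deposited table of OGD-empty against sham-empty, 59 of the 76 log2 fold changes were positive, with a median of 0.81, and 0 of the 76 had a false discovery rate under 0.05 (6 of all 12145 genes).

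With miR-29 virus present, OGD was not accompanied by a called change of any of the 76 genes. In OGD-miR-29 against sham-miR-29 edgeR called 0 of 76 (0.0165% of all genes). At an unadjusted p under 0.05 there were 11 (1111 of all 12119 genes), and the median was -0.45. DESeq2 and limma-voom called 0 of the 76 as well. Pcdh17 was at -1.20 ± 0.35 and Pcdh10 at -0.89 ± 0.26, with adjusted p of 0.452 and 0.443. In Pcdh10 all OGD-miR-29 libraries (18.2, 15.8 and 7.21 CPM) lay below the sham-miR-29 libraries (25.8, 33.8 and 20.6 CPM). In 23 of the 76 genes OGD-miR-29 lay wholly below sham-miR-29 and in 2 wholly above, against 8.69% and 8.19% of all genes. On all 3 dissection days 34 genes were lower and 2 higher in OGD-miR-29 than in sham-miR-29, against 18.7% and 19.1% of all genes. In sham cultures, sham-miR-29 against sham-empty gave 0 calls by edgeR, DESeq2 and limma-voom (0% of all genes). The median was -0.04, with 3 unadjusted p under 0.05 (405 of all 12119 genes). With the dissection day as a block the median was 0.09, with 6 unadjusted p under 0.05 (510 of all 12119 genes). On both days with a usable pair 18 genes were higher and 10 lower in sham-miR-29, against 23.6% and 25.6% of all genes. For example, Nrxn3 had 107.3, 205.2 and 98.7 CPM in sham-miR-29 and 176.0 and 125.6 CPM in sham-empty, and Slit2 had 21.6, 36.1 and 23.1 CPM in sham-miR-29 and 34.8 and 28.4 CPM in sham-empty. These groups overlap in both genes. OGD-miR-29 against sham-empty, which differ in virus and in OGD, likewise gave 0 calls by edgeR, DESeq2 and limma-voom (0% of all genes). There were 5 unadjusted p under 0.05 (841 of all 12119 genes), and the median was -0.47. When those groups were fitted alone 2 of the 76 were called (0.152% of all genes). In 37 genes OGD-miR-29 lay wholly below sham-empty and in 3 wholly above, against 17.1% and 13.5% of all genes, and on both days with a pair 50 were lower and 7 higher, against 31.1% and 26.8%. In the authors' deposited table of that comparison 17 of the 76 log2 fold changes were positive (median -0.52), and 0 passed a false discovery rate of 0.05.

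The difference between the viruses after OGD differed from that in sham cultures for 10 of the 76 genes. This interaction, the signed virus difference in OGD minus that in sham, was negative for 9 and positive for 1, where 8.38% of all genes were called, 3.66% lower and 4.72% higher. Nrxn2 had the lowest adjusted p (-1.56 ± 0.32, adjusted p = 0.0101), with 33.1, 37.8 and 28.4 CPM in OGD-miR-29, 63.8, 63.2 and 54.7 in OGD-empty, 34.1, 49.96 and 39.3 in sham-miR-29 and 29.8 and 21.99 in sham-empty. Its OGD-empty libraries were the highest of all, and its virus difference was -0.87 after OGD and 0.69 in sham cultures, so both entered the interaction. For Cdh10 they were -1.72 and 1.12, and for Cntn1 -1.05 and 0.07; the sham differences were not called. Ncam1 (-1.61 ± 0.38), Pcdh1 (-1.90 ± 0.48), Pcdh17 (-2.001 ± 0.55), Pcdh10 (-1.46 ± 0.41), Cntnap3 (-1.92 ± 0.52), Cdh10 (-2.84 ± 0.73), Cdh11 (-1.71 ± 0.53) and Cntn1 (-1.13 ± 0.33) were the others below 0, and Pcdh12 was above (2.01 ± 0.61). Pcdh1, for instance, had 11.2, 13 and 7.21 CPM in OGD-miR-29, 28.6, 20.3 and 17.2 in OGD-empty, 20.5, 23.8 and 12.1 in sham-miR-29 and 13.9 and 8.10 in sham-empty. With the span trend removed 6 were called (4.78% of all genes) and 8 of the 10 were lost, Nrxn2 among them (-0.90, adjusted p = 0.0836). Cdh10 and Pcdh1 were kept, and the median was -0.46. With the block added to that 11 were called (7.94% of all genes), 4 of them among the 10. With the dissection day as a block 27 were called (15.4% of all genes), all negative, 9 of them among the 10, and without OGD-empty replicate 2 it was 28 (12.6%), including all 10. Single libraries moved the count by more than 1.5 times. The count was 1 and 0 without sham-empty replicates 1 and 2 (0.527% and 0.766% of all genes called). Without sham-miR-29 replicate 2, the highest sham-miR-29 library for many of these genes, the count was 1 (2.55% of all genes). It was 2 without OGD-miR-29 replicate 3 (3.63%), 4 without OGD-miR-29 replicate 2 (5.25%) and 6 without sham-miR-29 replicate 1 (5.35%). It was 16 without sham-miR-29 replicate 3 (10.7%), and 26 and 16 without OGD-empty replicates 1 and 3 (11% and 8.37%).

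Genes of the same pathways outside the 76 were read from fixed lists for OGD-miR-29 against OGD-empty, where 37.1% of all genes were called. Of 8 netrin ligands and receptors 5 fell and 1 rose, among them Ntng1, a netrin anchored to the axon (-2.94 ± 0.57), and Dcc, the attractive netrin receptor (-2.61 ± 0.73), with Ntn5 higher (1.25 ± 0.39). Of 16 Slit-Robo effectors 9 fell and 1 rose, with the Robo-binding GTPase activators Srgap1 (-1.59 ± 0.44) and Srgap3 (-1.48 ± 0.26) and the adaptor Nck2 (-1.74 ± 0.33) lower and the small GTPase Cdc42 higher (0.56 ± 0.20). Of 23 semaphorins, plexins and neuropilins 12 fell and 1 rose, led by Sema6d (-2.28 ± 0.59), Sema5a (-1.96 ± 0.43) and the receptor Plxna4 (-1.73 ± 0.43), with Sema5b higher (0.74 ± 0.29). Of 13 ephrins and Eph receptors 6 receptors fell and the ligand Efna3 rose (1.02 ± 0.34), with Epha5 at -2.08 ± 0.35. The genes named so far as lower in these 4 lists each span over 100 kb, but shorter genes of these lists were called lower too. They were Ntng2 (-1.21 ± 0.27, 58.5 kb), Nck1 (-1.40 ± 0.39, 53.8 kb), Flrt3 (-1.09 ± 0.28, 20.6 kb) and Plxna1 (-0.67 ± 0.24, 46.3 kb).

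The lists of adhesion partners inside the cell and at the synapse differed in their balance. Of 9 catenins, which tie cadherins to actin, 5 fell, with Ctnnd2 at -2.31 ± 0.64, and 2 rose, Jup (0.81 ± 0.25) and Ctnnb1 (0.53 ± 0.19). Of 28 other synaptic organisers 20 fell and 1 rose, led by Cadm2 (-2.67 ± 0.61), Tenm2 (-2.54 ± 0.66) and the receptor phosphatase Ptprd (-2.35 ± 0.52), with Cadm4 higher (0.81 ± 0.20). Of 16 other immunoglobulin adhesion genes 14 fell, with Mdga2, which binds neuroligins (-2.72 ± 0.69), Sdk1 (-2.65 ± 0.71) and Ntm (-2.24 ± 0.67) lowest. Of 21 postsynaptic scaffolds 15 fell, such as Magi2 (-2.49 ± 0.69), Dlgap2 (-2.23 ± 0.61) and Dlg2 (-2.18 ± 0.55), and Lin7b rose (0.78 ± 0.29). Of 5 proteases that cut adhesion proteins 2 fell, Adam10 (-1.33 ± 0.30) and Bace1 (-0.89 ± 0.21), a share near that of all genes. In OGD-empty against sham-empty the same lists held few calls, all higher, among them Ntng2 (1.55 ± 0.38), Lphn2 (1.64 ± 0.42), Plxna2 (1.17 ± 0.28), Epha5 (1.52 ± 0.40), Nrcam (0.97 ± 0.27), Shank2 (1.38 ± 0.39) and Bace1 (1.05 ± 0.27). Neuronal markers were mixed in OGD-miR-29 against OGD-empty, with 6 of 13 lower, including the long Syt1 (-1.82 ± 0.33) and Rbfox3 (-1.75 ± 0.42), and the short Tubb3 higher (0.87 ± 0.20).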

How the data were processed

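RNA-seq counts per gene were deposited by the authors for 12 libraries, 3 in each of 4 groups. Per the submitters' processing notes, STAR 2.5.0a, featureCounts 1.4.3-p1, edgeR and mm10 were named; settings, annotation and strand are not given in the sources used here, so reads of overlapping genes cannot be told apart. The authors' deposited comparison tables hold, per the file headers, log2 fold changes, log2 CPM, a likelihood ratio score, p-values and false discovery rates. Sham-empty replicate 3 was left out of the main tests after its values were seen. Columns of per-sample values that matched no label numbered 0.

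Counts of 11 libraries were fitted with 4 group means in edgeR 4.0.16 (R 4.3.3; TMM, filterByExpr, robust quasi-likelihood F test), with Benjamini-Hochberg adjustment over 12119 genes and a call at 0.05. SE is the absolute log2 fold change over the square root of F. Alternatives were DESeq2 1.42.0, limma-voom (limma 3.58.1), DESeq2 size factors, no low-count filter, no mitochondrial rows, the compared groups alone, each library left out, a block for the dissection day, and the trend of each library on gene span (loess, span 0.4) as offsets. The edgeR fit was also run on simulated counts, which held no span trend and no outlying library, so that run does not bear on either. Spans and 3′ untranslated regions came from GENCODE M21 (GRCm38), miRNAs from RefSeq (GRCm38.p6). CPM are edgeR's counts scaled to the TMM-adjusted library total, mitochondrial rows included.

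The replicate number was taken as the dissection day. Same-number correlations of deviations had a median of 0.007 (15 pairs), against 0 for 30 pairs of different numbers. The block is therefore printed only where it moves a count by over 1.5 times. Members and lists were chosen with earlier results of these data known. Genes named by rule were the most abundant of each family, up to 30 called genes with the largest changes in OGD-miR-29 against OGD-empty, up to 10 called genes in each other comparison, and up to 3 called genes per list and direction; every other gene named was chosen after its values were seen, to account for its family. Depth limits low genes most; the printed SE covers the spread between cultures. Values of 1 of the 76 genes are not reported here singly; it is counted in the totals and not drawn by name.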

Additional observations from a re-analysis of the deposited data

Results flagged for a closer look

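For 10 of the 76 genes the difference between miR-29 and empty virus after OGD differed from that in sham cultures by a test of the difference itself (edgeR's quasi-likelihood test of the interaction, adjusted p under 0.05). On the log2 scale the values were -2.84 for Cdh10, -1.71 for Cdh11, -1.13 for Cntn1, -1.92 for Cntnap3, -1.61 for Ncam1, -1.56 for Nrxn2, -1.90 for Pcdh1, -1.46 for Pcdh10, 2.01 for Pcdh12 and -2.001 for Pcdh17. With the span trend removed 8 of the 10 calls were lost, those of Cdh10 and Pcdh1 excepted. None of the 10 calls held in all 11 fits that left out 1 library. The count was 0 without sham-empty replicate 2 (0.766% of all genes called), 1 without sham-empty replicate 1 (0.527%) and 1 without sham-miR-29 replicate 2 (2.55%). Summed neuronal markers were also highest in OGD-empty, and their part in these differences was not tested.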

How the results depend on the processing

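In OGD-miR-29 against OGD-empty the count of 54 called genes was 31 to 55 with 1 library left out (26.4% to 34.7% of all genes). It was 33 with the span trend removed (22.9%) and 32 with the replicate block added to that (24.5%). Its median of -1.38 was -0.48 and -0.47 in those span fits, and -1.57 to -1 with 1 library left out. The 43 calls among genes of at least 100 kb were 18 and 17 in the span fits and 26 to 46 with 1 library left out, and the 7 calls among genes with a seed match were 3 in both. In the span fits without and with the block, log2 fold changes of genes called lower turned positive for Cdh13 (0.561 in both, now called higher), Robo1 (0.225 and 0.22), Slit1 (0.084 and 0.079), Cntn1 (0.072 and 0.082), Cntnap2 (0.28 and 0.27), Cntn4 (0.075 and 0.101) and Cdh12 (0.41 and 0.37). Unc50 lay between -0.15 and 0.073 with 1 library left out, and was 0.017 without OGD-empty replicate 2. In OGD-empty against sham-empty the 5 calls were 17 in DESeq2, 18 with the replicate block, 3 with the span trend removed, 10 with sham-empty replicate 3 kept, 0 with the compared groups alone and 0 to 17 with 1 library left out; the median of 0.89 was 0.20 and 0.27 in the span fits. For the interaction, the 10 calls were 24 in DESeq2, 27 with the replicate block, 6 with the span trend removed, 18 with sham-empty replicate 3 kept and 0 to 28 with 1 library left out. Its median of -1.48 was -0.46 and -0.49 in the span fits and -1.65 to -0.97 with 1 library left out. Shares of all genes called changed too. In OGD-empty against sham-empty they were 5.09% at first, 11.1% in DESeq2, 11.3% with the block and 5.2% with sham-empty replicate 3 kept. For the interaction they were 8.38%, 16.7%, 15.4% and 8.88%, in the same order. With the span trend removed they were 2.58% and 4.78%. DESeq2 gave no adjusted p to 26 adhesion and guidance genes in OGD-empty against sham-empty and to 27 in the interaction. Its 17 and 24 calls came from the others. In OGD-miR-29 against sham-empty the median of -0.47 was -0.21 and -0.15 in the span fits. There 2 genes were called with the compared groups alone (0.152% of all genes). The causes of these shifts were not tested. The replicate block moved no other count of calls by over 1.5 times. Low counts outside the mitochondrial rows, 2 sham-empty libraries and rows that may share reads with neighbours limit these results.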
